A study of Mus musculus with 3 samples.

Results

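The 10 genes described here carry out the uptake of arginine and its conversion to nitric oxide, ornithine and polyamines: Nos2, Arg1, Arg2, Slc7a2, Ass1, Asl, Gch1, Odc1, Srm and Sms. They were chosen by name, for their roles, and each symbol matched a single gene among the 55536 genes of the tables. Cytosolic RNA depleted of ribosomal RNA was sequenced from C57BL/6J macrophages grown out of mouse bone marrow in culture. All 3 libraries belonged to 1 group. The cells had received lipid A, the part of bacterial lipopolysaccharide sensed by Tlr4, at 100 ng/ml for 12 hours, then 12 hours without it, then lipid A at 100 ng/ml again for 60 minutes. Each library was made from 1 µg of RNA of a separately listed biological sample under the same donor entry, with sex and age not recorded. Nothing states that the cultures came from different animals, so p-values rest on the spread between these samples, which may be technical. Those from limma also draw on the spread of other genes. Cells that had received lipid A once or not at all were not analysed here, so the values are levels and not responses. In bulk RNA, fewer expressing cells and less RNA per cell cannot be told apart.

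Replicates 1, 2 and 3 held 50807046, 53364168 and 46546422 expected counts. A count of 0 allows up to 3 counts by counting error alone, which is 0.0590, 0.0562 and 0.0645 CPM (counts scaled to the library total). All 10 macrophage markers examined had a mean above 1 TPM (a level per length of RNA, scaled to a fixed total), with a summed level of 4986 to 6599 TPM in the 3 libraries. Of 10 neutrophil markers, 3 had a mean above 1 TPM and their sum was 9.55 to 11.9 TPM, with Ly6g at 0. Of 10 T or NK cell markers none did, and their sum was at most 0.340 TPM, with Ncr1, Klrb1c, Gzma and Cd2 at 0. The B cell list had 2 above 1 TPM, led by Cd22, with a sum of 5.89 to 12.9 TPM and Blk at 0. The dendritic cell and stromal lists had 2 each, led by Bst2 and Vim, which macrophages also express. Their sums were 486 to 836 and 529.7 to 616 TPM, and Cd209a was at 0. Malat1, a nuclear RNA, was 112, 90.6 and 452 TPM in the same order, and 7SL RNA held 58.4% to 63.7% of TPM, which leaves less TPM for messenger RNA.

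Arginine has competing uses in macrophages. Inducible nitric oxide synthase, the product of Nos2, oxidises it to nitric oxide and citrulline with tetrahydrobiopterin as a cofactor, and Gch1 encodes the enzyme that starts cofactor synthesis. Citrulline is turned back into arginine by argininosuccinate synthase (Ass1) and argininosuccinate lyase (Asl). Arginases, encoded by Arg1 and Arg2, instead split arginine into urea and ornithine, and ornithine decarboxylase (Odc1) opens the path from ornithine to putrescine, spermidine (made by the product of Srm) and spermine (made by the product of Sms). Nos2 is a classic gene of macrophages exposed to bacterial products, and Arg1 is a classic gene of macrophages exposed to interleukin 4.

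The members spanned a wide range of levels, with the polyamine gene Odc1 at the top and the arginase gene Arg1 at the bottom. Of the 10, 7 stood above 1 TPM and 3 (Slc7a2, Arg2 and Arg1) below it, by limma on log2(TPM + 1) with Benjamini-Hochberg adjustment over all 20685 genes with a value. Among those 20685 genes, 44.5% stood above 1 TPM and 50.4% below, and among the 14374 nuclear protein-coding genes tested the shares were 61.0% and 33.8%. The share of members above the level was therefore near that of coding genes in general. The median of the 10 mean levels was 5.02 TPM, beside 3.09 TPM over nuclear coding genes with a value. The order of mean levels, taken over all transcripts of each gene, was Odc1, Gch1, Ass1, Asl, Sms, Srm, Nos2, Slc7a2, Arg2, Arg1. The ranges over libraries of neighbours in this order overlapped for Gch1 and Ass1, Ass1 and Asl, Asl and Sms, Srm and Nos2, and Slc7a2 and Arg2, and did not overlap for the other neighbours. Within libraries, Asl was above Sms in 3 of 3, and each of the other overlapping pairs kept its order in 2 of 3.

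**Figure D1:**
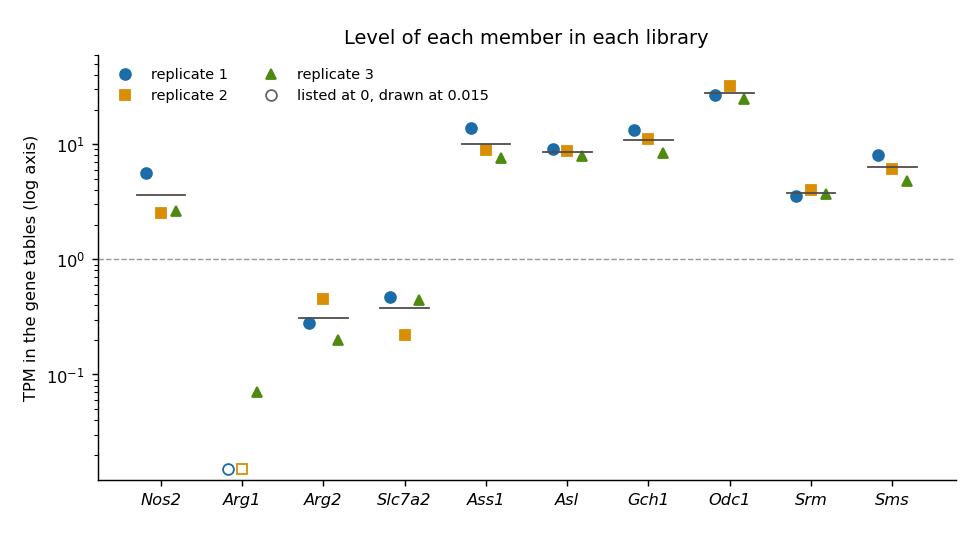
Level of the 10 members in TPM (vertical log axis) in each of the 3 libraries, with a bar at the mean where no library was at 0 and a dashed line at 1 TPM. Odc1 stood highest at 24.5 to 32.3 TPM, Slc7a2 and Arg2 stood below 1 TPM in each library, and Arg1 was listed at 0 in replicates 1 and 2.

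Nos2 messenger RNA (chr11:78920787-78960254, mm10, plus strand) was present at a moderate level and was highest in replicate 1. It stood at 5.67, 2.51 and 2.64 TPM in replicates 1, 2 and 3, from 1692, 914 and 874 expected counts. Replicate 1 was 2.26-fold above the lowest library, and the other two lay close together. The authors' bounds for TPM, whose confidence level is not given, were 5.37 to 5.94 in replicate 1, 2.35 to 2.72 in replicate 2 and 2.47 to 2.85 in replicate 3. The mean was 3.61 ± 1.79 TPM (SD, n = 3), at the 52.7th percentile of nuclear coding genes with a value. Nos2 stood above 1 TPM by 1.14 ± 0.21 (moderated SE) on the log2(TPM + 1) scale (limma, adjusted p = 0.0034). This SE draws on the variance of other genes and not on the 3 Nos2 values alone. In the second set of tables, made directly from the reads, Nos2 was at 2.19, 1.30 and 1.26 TPM and did not pass the test against 1 TPM (limma, adjusted p = 0.06). All of its TPM in the first tables was assigned to Nos2-201, a coding transcript of 4192 bases. The second tables gave that transcript 100.0%, 93.0% and 86.7%.

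Gch1, which encodes the first and rate-limiting enzyme of tetrahydrobiopterin synthesis, stood at 13.2, 11.1 and 8.43 TPM in replicates 1, 2 and 3 (chr14:47153895-47189413, minus strand), with replicate 3 lowest. It was above 1 TPM (limma, adjusted p = 8.1e-07). Its mean of 10.9 ± 2.40 TPM (SD, n = 3) was above that of Nos2, and the ratio of Gch1 to Nos2 within a library was 1.22, 2.14 and 1.67 on the log2 scale, higher in 3 of 3 libraries. An exact sign-flip test over 3 libraries cannot give a two-sided p below 0.25, so this and the later ratios carry no p-value. Nearly all of the Gch1 signal was the coding transcript Gch1-201. The retained-intron transcript Gch1-202 held 0.860%, 0.660% and 5.41% of the gene in replicates 1, 2 and 3, from 28, 22 and 125 expected counts, and 0.944%, 0.767% and 5.70% in the second tables. Replicate 3, where this share was highest, was also the library with the highest Malat1, and the part of nuclear RNA in this difference was not tested. The processed pseudogenes Gm49134 and Gm18811 lie within the gene, at means of 0.0767 and 0.113 TPM.

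RefSeq promoter windows (GRCm38.p6, from 250 bases before to 50 after the start) were matched for 4 members: Ass1, Gch1, Odc1 and Sms, the last with 2 starts, which gives 5 windows. The Gch1 window was picked with the matches known. It belongs to the gene that supplies the Nos2 cofactor and has 1 match within 10 bases of the start. Windows not shown had matches too, among them CACGTG 36 bases before the Ass1 start. It is given as the 250 bases before the RefSeq start, chr14:47189414-47189663, minus strand, with matches in capitals.
Gch1: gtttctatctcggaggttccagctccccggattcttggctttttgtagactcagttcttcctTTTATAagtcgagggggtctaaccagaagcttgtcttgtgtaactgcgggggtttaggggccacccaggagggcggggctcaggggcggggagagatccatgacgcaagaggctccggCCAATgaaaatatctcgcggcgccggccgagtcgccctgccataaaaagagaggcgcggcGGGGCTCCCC
The capitals mark, in order, TATAAA on the reverse strand 188 bases before the start, CCAAT 70 bases before it and the NF-κB consensus 10 bases before it. Searched on both strands, the NF-κB consensus was in 8.46% of all 32851 windows of the same length and in 3 of the 5 member windows. These were the Gch1 window and the 2 windows of Sms, which are 1 gene. CCAAT was in 37.4% of all windows and in 2 of the member windows, CACGTG in 7.15% and 2, and TATAAA in 13.6% and 1. With 5 windows from 4 members, no excess over these shares was tested. A match describes letters and is not a bound site.

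Most other genes of tetrahydrobiopterin supply stood above 1 TPM, as did 61.0% of the nuclear coding genes tested. Of 4, 3 stood above 1 TPM (limma, adjusted p under 0.05): Qdpr, which regenerates the cofactor, at 16.7 ± 1.78 TPM (SD, n = 3), and the synthesis genes Pts at 12.5 ± 1.21 and Spr at 4.62 ± 0.714. Pcbd1 was below the level at 0, 0 and 0.0200 TPM. Gchfr, whose product restrains the enzyme encoded by Gch1, had 3 counts in replicate 2 and 0 in the others. Gch1 itself had 2545, 2606 and 1823 counts in replicates 1, 2 and 3. Nos2 was the only 1 of the 3 nitric oxide synthase genes above 1 TPM. The neuronal gene Nos1 and the endothelial gene Nos3 had means of 0.00667 and 0.0133 TPM. The share of nuclear coding genes tested that stood below 1 TPM was 33.8%. Among 6 genes of synthases and their regulators outside the members, 1 stood above 1 TPM and 5 below it. The former was Nosip, whose product binds nitric oxide synthases, at 16.7 ± 1.71 TPM, and Ddah2, for an enzyme that removes methylated arginine, was next at 0.550 ± 0.165 TPM. Without replicate 1, Ddah2 could not be placed (limma, adjusted p = 0.059). With TPM rescaled over nuclear coding genes, Ddah2 stood above 1 TPM by 0.48 on the log2(TPM + 1) scale (limma, adjusted p = 0.013).

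Slc7a2, a carrier of cationic amino acids that brings arginine into the cell, was low and was lowest in replicate 2. It stood at 0.470, 0.220 and 0.440 TPM in replicates 1, 2 and 3 (chr8:40862396-40922308, plus strand), from 208, 117 and 182 counts, and was below 1 TPM (limma, adjusted p = 2.1e-04). With TPM rescaled over nuclear coding genes its mean was 1.24 TPM and it could not be placed (limma, adjusted p = 0.37). The related carrier gene Slc7a1 stood at 4.79, 4.65 and 4.53 TPM. The ratio of Slc7a1 to Slc7a2 was 3.35, 4.40 and 3.36 on the log2 scale, that is 10.2-, 21.1- and 10.3-fold, and the ratio of Slc7a2 to Nos2 was −3.59, −3.51 and −2.58. Gm26584, a long noncoding RNA gene on the other strand, overlaps the start of Slc7a2 and had a mean of 0.0200 TPM.

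Transcripts of Slc7a2 use either of 2 exons in the same place, and the carrier forms of this locus are known to differ in their affinity for arginine through such a stretch. Both exons are shown because they tell the coding transcripts of the gene apart. The first (chr8:40908056-40908195, plus strand, 140 bases) is in Slc7a2-202 and Slc7a2-203, and the second (chr8:40908398-40908534, 137 bases) in Slc7a2-201 and Slc7a2-204. Capitals mark bases that differ or lack a partner in a global alignment, in which 84 of 140 columns (60.0%) were identical. The sequences are from the GENCODE M21 transcripts.
First exon: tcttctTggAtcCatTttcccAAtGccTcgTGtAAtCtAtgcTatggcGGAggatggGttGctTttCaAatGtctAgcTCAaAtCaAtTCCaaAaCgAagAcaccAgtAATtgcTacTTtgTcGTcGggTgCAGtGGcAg
Second exon: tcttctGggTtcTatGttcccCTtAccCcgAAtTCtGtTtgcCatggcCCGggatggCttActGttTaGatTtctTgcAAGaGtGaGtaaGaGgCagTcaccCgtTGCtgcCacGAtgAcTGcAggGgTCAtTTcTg
Transcripts with the first exon held 91.5%, 63.6% and 79.5% of Slc7a2 transcript TPM in replicates 1, 2 and 3, and those with the second 8.51%, 36.4% and 20.5%. By TPM the first exon was the larger form in each library, by the least in replicate 2. In the second tables its share was 100.0%, 100.0% and 82.4%, so replicate 2 did not stand apart there. The counts assigned to these whole transcripts were 188, 57 and 125 for the first exon and 21, 60 and 57 for the second, nearly equal in replicate 2. The models also differ in their starts and in length, from 3677 bases in Slc7a2-202 to 7910 in Slc7a2-201, and which of the reads lay on these exons was not tested.

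Some other carriers of arginine stood above Slc7a2 and some below. Slc3a2, the heavy chain that pairs with several amino acid carriers, stood at 144 ± 7.71 TPM (SD, n = 3), and its partner Slc7a7, which exchanges cationic for neutral amino acids, at 31.8, 18.1 and 24.8 TPM, lowest in replicate 2 like Slc7a2. Among nuclear coding genes tested, 61.0% stood above 1 TPM and 33.8% below. Of 7 transport genes outside the members, limma (adjusted p under 0.05) placed 3 above 1 TPM (Slc3a2, Slc7a7 and Slc7a1) and 2 below, and left 2 unplaced. The unplaced genes were Slc7a6 at 1.18 ± 0.136 TPM and the mitochondrial ornithine carrier Slc25a15 at 1.31 ± 0.215, and the placing of both changed with the processing. Those below were Slc25a29 and Slc7a3, with means of 0.0300 and 0.0167 TPM.

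The genes that rebuild arginine from citrulline were both well above 1 TPM. Ass1 stood at 13.7, 8.98 and 7.63 TPM in replicates 1, 2 and 3 (chr2:31470207-31520672, plus strand), highest in replicate 1, and was above 1 TPM (limma, adjusted p = 9.9e-06). On TPM as deposited, 68.6% of coding genes with a mean of at least 1 TPM were highest in that library. Asl stood at 9.11, 8.73 and 7.92 TPM (chr5:130011258-130029247, minus strand; limma, adjusted p = 1.8e-07) and varied little. The ratio of Ass1 to Asl was 0.59, 0.04 and −0.05 on the log2 scale, so the difference of the means came from replicate 1 and changed sign without it, at −0.01. Ass1-201 held all of the Ass1 TPM in the first tables. For Asl, Asl-205 held 86.7% ± 0.259 (SD, n = 3) and Asl-202, another coding transcript, 9.87% ± 1.04. The second tables gave Asl-205 less, at 78.9%, 77.1% and 74.9% in replicates 1, 2 and 3.

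Arginase transcripts were scarce. Arg1, the arginase of the liver urea cycle, was listed at 0 in replicates 1 and 2 and at 0.0700 TPM in replicate 3 (chr10:24915221-24927484, minus strand), from 0, 0 and 3 counts. Of those 3 counts, 2 were assigned to the coding transcript Arg1-201 and 1 to the retained-intron transcript Arg1-202. Arg2, the mitochondrial arginase, stood at 0.280, 0.450 and 0.200 TPM (chr12:79130777-79156301, plus strand), from 25, 50 and 20 counts, with replicate 2 highest. Both were below 1 TPM (limma, adjusted p = 1.1e-07 for Arg1 and 7.3e-05 for Arg2). With TPM rescaled over nuclear coding genes Arg2 had a mean of 1.03 TPM and could not be placed (limma, adjusted p = 1), while Arg1 had a mean of 0.0850 TPM.

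Over the 3 libraries together, Arg2 had 95 counts and Arg1 had 3, a ratio of 31.7 (95% exact interval 10.5 to 156, counting error only). In replicate 3, where Arg1 had its counts, the ratio was 6.67 (1.98 to 35.0). Arg2 was lower than Nos2 in 3 of 3 libraries, with a log2 ratio of −4.34, −2.48 and −3.72, that is 20.2-, 5.58- and 13.2-fold lower. The last 285 bases of Arg2 overlap Vti1b on the other strand, a gene at 29.0 TPM on average. The strand setting is not given in the sources used here, so reads of the overlap cannot be told apart.

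Genes that handle ornithine outside the polyamine path were uneven. Among nuclear coding genes tested, 61.0% stood above 1 TPM and 33.8% below. Of 8 genes of urea, proline and creatine metabolism, 4 stood above 1 TPM and 1 below it (limma, adjusted p under 0.05), and 3 were listed at 0 in every library. The highest were Gatm, the first enzyme of creatine synthesis, which uses arginine, at 11.5 ± 1.48 TPM (SD, n = 3) and Oat, which turns ornithine towards proline and glutamate, at 10.7 ± 0.653. Pycr1, a reductase of proline synthesis, was lowest among those measured at 0.0533 ± 0.0493 TPM. The genes at 0 were Otc and Cps1 of the urea cycle and Agmat, each with an upper limit of 3 counts per library.

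Odc1, the first enzyme of polyamine synthesis, was the highest member. It stood at 26.6, 32.3 and 24.5 TPM in replicates 1, 2 and 3 (chr12:17544794-17551505, plus strand), a mean of 27.8 ± 4.03 (SD, n = 3) at the 88.5th percentile of nuclear coding genes with a value (limma against 1 TPM, adjusted p = 5.1e-08). Srm stood at 3.53, 4.03 and 3.70 TPM (chr4:148591503-148594993, plus strand; limma, adjusted p = 3.1e-06) and Sms at 8.05, 6.05 and 4.78 TPM (chrX:157443855-157492287, minus strand; limma, adjusted p = 1.1e-05). Odc1 and Srm were highest in replicate 2, and Sms was highest in replicate 1. The ratio of Odc1 to Srm was 2.91, 3.00 and 2.73 on the log2 scale and had the smallest SD of the 9 ratios computed, 0.14. By the level of the whole gene, Srm was below Sms in 3 of 3 libraries, with a log2 ratio of −1.19, −0.59 and −0.37. By transcripts annotated as protein coding alone, the order was reversed in each library. Srm then stood at 3.43, 4.03 and 3.70 TPM and Sms at 2.80, 2.69 and 2.77 TPM in replicates 1, 2 and 3.

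Sms is a case where the per-length level and the number of reads went apart. Its CPM was 24.6, 23.9 and 22.2 in replicates 1, 2 and 3, a spread that did not pass the test of counts against sampling noise (chi-square, adjusted p = 0.054, but 7.8e-04 with TMM scaling and 0.02 in the second tables), whereas its TPM differed 1.68-fold between replicates 1 and 3. The long coding transcript Sms-201 (3717 bases) stood at 2.80, 2.69 and 2.77 TPM. The shorter transcript Sms-204 (1540 bases), annotated as a target of nonsense-mediated decay, a pathway that removes messages with an early stop, stood at 5.08, 3.25 and 1.95 TPM. On TPM as deposited, nearly all of the difference between libraries lay in Sms-204. That scale carries a difference between libraries, since coding genes held 34.5%, 29.0% and 27.5% of TPM. With TPM rescaled over coding genes, Sms-201 stood at 8.12, 9.29 and 10.1 and Sms-204 at 14.7, 11.2 and 7.10, so Sms-201 was then highest in replicate 3 and Sms-204 still lowest there. Sms-204 held 63.1%, 53.8% and 40.9% of the gene in the first tables and 62.9%, 62.9% and 46.2% in the second, lowest in replicate 3 in both. Its assigned counts were 504, 396 and 214, beside 735, 864 and 809 for Sms-201.

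The annotated Sms-204 lacks exon 8 of Sms-201 (115 bases, chrX:157455994-157456108), which is not a multiple of a codon, and its coding part ends after 258 codons in place of 366. The junctions that tell the transcripts apart are shown 5′ to 3′ from the GENCODE M21 transcripts, 15 bases on each side, with the downstream exon in capitals.
Sms-201 exon 7 to exon 8: ggagactgctatcagGTTCTTATAGAAGAC
Sms-201 exon 8 to exon 9: catctccagaagaagATTCCACATGGGATT
Sms-204 across the skipped exon: ggagactgctatcagATTCCACATGGGATT
The models differ in more than this exon. Sms-201 has 1841 further bases at its 3′ end and 221 at its 5′ end, so reads outside the skipped exon also weigh in the division between them, and reads across these junctions were not analysed here. The processed pseudogene Sms-ps, elsewhere on chromosome X, stood at 1.05, 0.370 and 0.830 TPM, and reads could be shared with it.

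**Figure D2:**
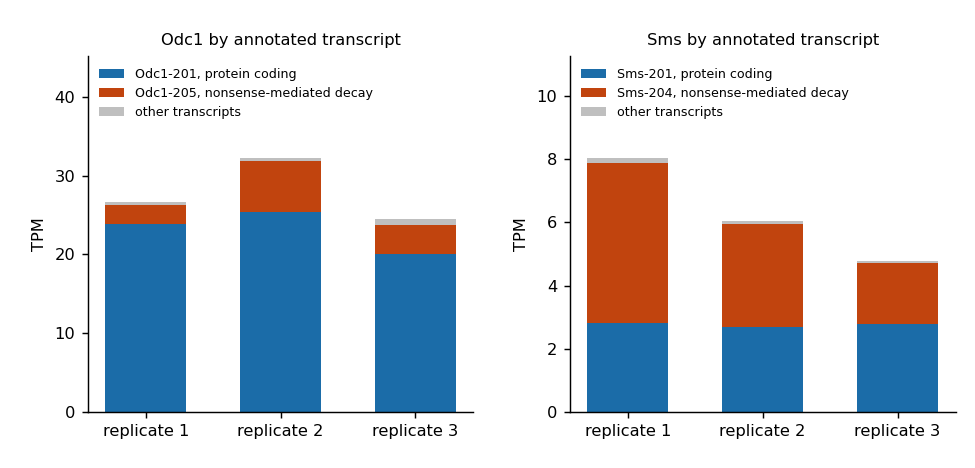
TPM of Odc1 (left) and Sms (right) in each library, stacked by annotated transcript, with the vertical axes from 0. On TPM as deposited, Sms-201 lay between 2.69 and 2.80 (highest in replicate 3 once TPM is rescaled over coding genes) and Sms-204 between 1.95 and 5.08, and Odc1-205 was largest in replicate 2 at 6.49 TPM.

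Odc1 also had a transcript annotated for nonsense-mediated decay. Odc1-205 held 9.05%, 20.1% and 14.8% of the gene in replicates 1, 2 and 3, from 319, 1054 and 533 counts, and 5.02%, 9.77% and 7.35% in the second tables, so its order over libraries was the same in both and its share was smaller in the second. The coding transcript Odc1-201 stood at 23.9, 25.4 and 20.1 TPM, a narrower range than the whole gene. The models part after an internal exon: Odc1-201 joins it to an exon of 84 bases, whereas Odc1-205 extends it by 17 bases and joins it to an exon that starts 67 bases earlier than the following exon of Odc1-201. Both junctions are shown, 15 bases on each side, with the downstream exon in capitals.
Odc1-201 (chr12:17548626 to chr12:17548787): gtgtttgacatggcaACAGAAGTTGGTTTC
Odc1-205 (chr12:17548643 to chr12:17549357): gagtacacgggacttACCTGCTGGGTCATG
Odc1-205 also lacks the first exons and has 421 further bases at its 3′ end, so the assignment does not rest on the junction alone. The snoRNA gene Gm22748, within Odc1, was listed at 0.

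Genes that control, use or break down polyamines were nearly all expressed. Of 14, limma placed 13 above 1 TPM and 1 below (adjusted p under 0.05), beside 61.0% and 33.8% of the nuclear coding genes tested. The median level of the 14 was 11.6 TPM. Sat1, which acetylates spermidine and spermine for export or breakdown, was highest at 194, 149 and 125 TPM, followed by Eif5a, the translation factor whose hypusine residue is made from spermidine, at 139 ± 7.54 TPM (SD, n = 3). Oaz1, the antizyme that binds ornithine decarboxylase and sends it to the proteasome, stood at 137, 116 and 92.5 TPM. Odc1 was below Sat1 by a log2 ratio of −2.87, −2.21 and −2.35 and below Oaz1 by −2.36, −1.84 and −1.92, in 3 of 3 libraries each. The 1 gene below 1 TPM was Azin2, which encodes an antizyme inhibitor, at 0.500 ± 0.0693 TPM. With TPM rescaled over nuclear coding genes, Azin2 stood above 1 TPM by 0.41 on the log2(TPM + 1) scale (limma, adjusted p = 0.019).

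**Figure D3:**
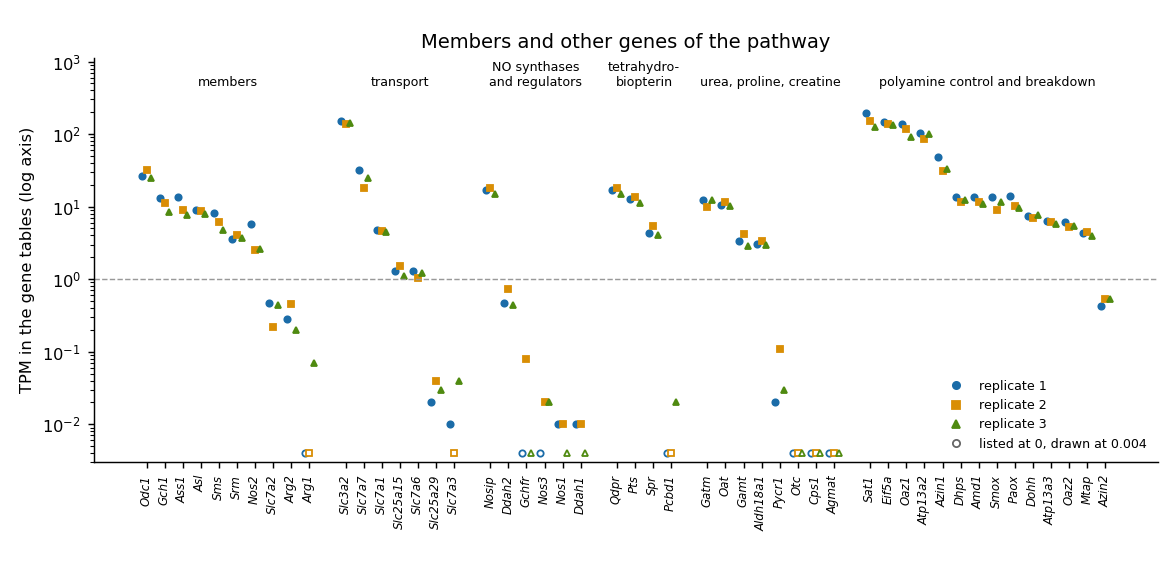
TPM (vertical log axis) of the 10 members and 39 other genes of the pathway in each library, ordered by mean level within each group, with a dashed line at 1 TPM and open symbols for values of 0. Of the 39, 24 stood above 1 TPM, 10 below it, 2 could not be placed and 3 were listed at 0, and Sat1, Slc3a2, Eif5a, Oaz1, Atp13a2 and Azin1 had means above that of every member. Among nuclear coding genes tested, 61.0% stood above 1 TPM and 33.8% below.

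The members differed in how much they varied between libraries and in which library was highest. Counts of 8 of the 9 members with at least 30 counts in sum varied by more than sampling noise (chi-square on rounded expected counts, Benjamini-Hochberg adjusted p under 0.05), as did 69.3% of the 13075 genes tested, so variation of this kind was general. The exception was Sms, and Arg1 had too few counts. Across these genes the median coefficient of variation (CV) of CPM was 11.6%. It was 44.6% for Arg2, 38.6% for Nos2, 30.9% for Slc7a2 and 20.9% for Ass1, and 7.46%, 9.62%, 14.0% and 24.7% of all genes tested had a larger CV than these, in the same order. The CV of Arg2 includes the counting error of 20 to 50 counts. Odc1 had a CV of 18.0%, Srm 16.0%, Gch1 13.0%, Asl 5.73% and Sms 5.38%. Several of these calls rested on 1 library. Without replicate 1, 5 members passed (51.6% of genes did), and Nos2, Srm and Asl no longer did (chi-square, adjusted p = 0.092, 0.54 and 0.12). Without replicate 2, Arg2, Slc7a2 and Asl did not pass (adjusted p = 0.73, 0.73 and 0.49) and Sms did (0.025). Without replicate 3, Gch1 did not (adjusted p = 0.46).

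Which library was highest depended in part on the scaling. On TPM as deposited, 68.6% of 9176 coding genes with a mean of at least 1 TPM were highest in replicate 1, as were 6 of the 10 members. With TMM scaling, a common factor per library, the share was 37.2%, and 4 members were highest in replicate 1, 4 in replicate 2 and 2 in replicate 3. On all 4 scales examined (TPM, TPM over coding genes, TMM-scaled TPM and the second tables), 7 members kept 1 highest library: Nos2, Ass1 and Sms replicate 1, Odc1, Srm and Arg2 replicate 2, and Arg1, with 3 counts in all, replicate 3. The share of all coding genes that kept 1 highest library on every scale was not computed. In the second tables, 66.9% of the 9176 coding genes were highest in replicate 2. For Slc7a2, Asl and Gch1 the highest library changed with the scale. Slc7a2 was lowest in replicate 2 on each of them.

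**Figure D4:**
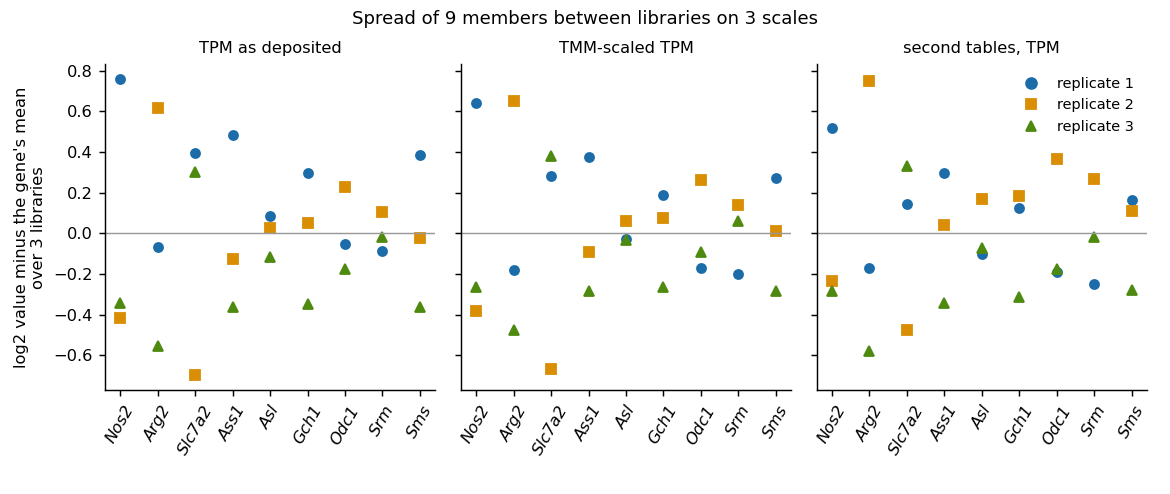
Difference of each library's log2 value from the mean over 3 libraries for 9 members (Arg1, at 0 in 2 libraries, is left out), on TPM as deposited, TMM-scaled TPM and TPM of the second tables. Nos2 and Ass1 were highest in replicate 1 and Odc1, Srm and Arg2 in replicate 2 on each scale shown.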

How the data were processed

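For each of 3 libraries, 1 gene table and 2 transcript tables were used (mm10 per the labels, GENCODE M21 per the deposited text). Expected counts and TPM rest on alignment to transcripts and were deposited by the authors. Each transcript's percent of its gene was also deposited. Lower and upper bounds of TPM, a signal on the TPM scale, were deposited by the authors within each library. The second transcript tables hold estimated counts and TPM made from the reads, as deposited, and were summed to genes. They do not list 86 genes of the gene tables. For the upstream tools, versions and strand setting, nothing was given in the sources used here. Entries that are not genes (0.378%, 0.0931% and 0.0772% of counts) were left out.

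Levels were tested two-sided against 1 TPM with limma 3.58.1 in R 4.3.3 (intercept-only, log2(TPM + 1), trend, robust) on all genes with TPM above 0 in a library. The pseudocount of 1 compresses low values. In this fit the variance of each gene is drawn towards that of other genes of like level, so SE and p rest in part on those genes. Variation was tested by chi-square with 2 degrees of freedom on rounded expected counts where the 3 libraries summed to 30 or more. TMM factors came from edgeR 4.0.16 and size factors from DESeq2 1.42.0. Python 3.11.15 with pandas 2.3.3, numpy 2.4.6, scipy 1.17.1 and matplotlib 3.10.9 was used for the rest.

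The members and lists were chosen with earlier results of these data known, and 2 genes of the lists are not reported here. All members were named, as were the highest 2 and lowest measured genes of each list, genes in a ratio, and transcripts with a mean share of at least 20%. Other names (genes in counts of 5 or fewer, transcripts with smaller shares, overlapping genes) were chosen after values were seen. With 3 counts or fewer a ratio has a 95% exact interval. Alternatives were the second tables, a level of 5 TPM, a pseudocount of 0.1, a filter at a mean count of 10, rescaling over nuclear coding genes, TMM, size factors, another minimum of summed counts and each replicate left out in turn. There was 1 group, so no groups were compared, and the labels name no batch.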

Additional observations from a re-analysis of the deposited data

How the results depend on the processing

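Under the alternatives run, 92 checks of a member against the level kept their direction and side of the threshold, 3 kept only the direction (Nos2 in the second tables, Arg2 with rescaling, Sms at 5 TPM) and 3 turned. At a level of 5 TPM, 4 members stood above it (26.5% of all genes tested did) and 4 below (67.2%), among them Srm at −0.34 on the log2 scale, while Nos2 at −0.45 could not be placed (limma, adjusted p = 0.09), and 15 of the other pathway genes stood below. At that level the sign also turned for Slc7a1 (−0.09), Slc7a6 (−1.46), Slc25a15 (−1.38), Spr (−0.10), Aldh18a1 (−0.56), Gamt (−0.44) and Mtap (−0.21), as the higher level itself implies. With TPM rescaled over nuclear coding genes, which raises every level, 1 member stood below 1 TPM (40.7% of genes did), Slc7a2 was at 0.15, and Ddah2 (0.48) and Azin2 (0.41) turned. In the second tables, where levels are lower, Slc7a6 at −0.27 and Slc25a15 at −0.33 were placed below 1 TPM (limma, adjusted p = 0.0084 and 0.011), and both were above it with rescaling. Slc25a15 was also above 1 TPM with a pseudocount of 0.1, the count filter, TMM scaling and without replicate 3 (limma, adjusted p = 0.036, 0.035, 0.05 and 0.046). With a mean count of at least 10, 2 other pathway genes stood below 1 TPM (22.6% of the 13064 genes tested did), since this filter left fewer genes to test. The count of members that varied beyond sampling noise was 5 to 7 when 1 replicate was left out (51.3% to 53.9% of genes), and 8 or 9 under the other settings (63.7% to 72.5%). Asl did not pass with TMM scaling (chi-square, adjusted p = 0.1), where Sms did (7.8e-04). With a pseudocount of 1 the log2 ratios were −1.75 for Arg2 to Nos2, 2.04 for Slc7a1 to Slc7a2, −1.68 for Slc7a2 to Nos2 and 2.59 for Odc1 to Srm. Leaving out 1 replicate gave −0.01 (without replicate 1) to 0.32 for Ass1 to Asl and turned no other ratio. Depth limits Arg1, with 3 counts in all, and Arg2, with 20 to 50 per library. No paired analysis was possible because there was 1 group.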
